A study of Homo sapiens with 19 samples.

Results

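The formins described here are 10 genes, FMNL1, FMNL2, FMNL3, DIAPH1, DIAPH2, DIAPH3, DAAM1, DAAM2, INF2 and FHOD1, among 22760 genes with a read on an annotated splice junction. They were chosen by gene family, with the knockdown values of 2 of their exons in view: the exon that ends the coding sequence of FMNL3, called its tail exon below, and the 27 nt exon of DIAPH1. The 10 genes hold 26 of the 37772 annotated cassette exons, meaning exons that a transcript can include or skip, and 9 of the 26 carried enough reads at an intermediate inclusion to be tested, of 6495 such exons in all. The measurements are raw counts of sequencing reads that cross each splice junction, from 19 libraries of ribosomal RNA-depleted RNA. Exon inclusion is the percent of inclusion reads among inclusion plus skipping reads, and gene reads are given as CPM, the junction reads of a gene scaled to an equal total of gene-assigned reads in every library.

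The labels of 5 libraries name no doxycycline: 3 of A375, a melanoma line (total, nuclear and cytoplasmic RNA), 1 of wild type HEK293, of embryonic kidney origin, and 1 of wild type HUES66, which are human embryonic stem cells. The other 14 libraries are of HUES66 cells, all given 1 µg/ml doxycycline, the controls included, for 24, 48 or 96 hr. They are 3 of control cells (genotype WT), 3 of RBFOX2 total knockdown (total KD), 4 of the RBFOX2 isoform knockdown titled N-short (N-short KD) and 4 of that titled N-long (N-long KD). RBFOX2 is an RNA-binding regulator of alternative splicing, and the title of the series names Cas13d, an RNA-guided enzyme that cuts RNA. The 48 hr and the 96 hr set each have 1 library of all 4 groups, replicate 2 at 24 hr lacks a total KD library and replicate 1 at 24 hr has none titled control. HUES66 cells were plated with an inhibitor of ROCK, a kinase that acts on actin and myosin. The labels do not name separate cultures for replicates, so the p-values measure the spread between these libraries, which may be technical.

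Depth ran from 6499183 to 27937149 junction reads per library. RBFOX2 itself had 125.8 to 132.9 CPM in the 3 control libraries, 51.1 to 83.3 CPM in total KD, 113.2 to 127.6 CPM in N-short KD and 76.7 to 92.7 CPM in N-long KD, so that the total KD and N-long KD libraries lay below every control and the highest N-short KD library lay among the controls. The summed stem cell markers (POU5F1, LIN28A, LIN28B, NANOG, DNMT3B, TDGF1 and L1TD1, 7 of the 8 searched) were 2790 to 4539 CPM in the doxycycline libraries and 9.64 CPM in A375 total RNA. SOX2, the other marker of that list, has no intron, so it can have no junction reads and its expression cannot be seen here. Of the 8 melanoma markers searched, MLANA and TYR had no reads in any library, and the 6 others summed to 874.0 CPM in A375 total RNA, 13.2 CPM in HEK293 and 73.9 to 129.9 CPM in the doxycycline libraries. PMEL, of that list, had more reads in the HUES66 libraries than in A375. The 4 endoderm and mesoderm markers with reads summed to 0.0723 to 0.799 CPM in the doxycycline libraries.

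Formins nucleate and lengthen unbranched actin filaments, with the FH2 domain holding the growing end and the FH1 domain feeding it actin bound to profilin. Many of them are held closed by an N-terminal inhibitory region that binds a C-terminal tail. DIAPH1, DIAPH2 and DIAPH3 are the mDia proteins, FMNL1, FMNL2 and FMNL3 answer mainly to Cdc42 and Rac, DAAM1 and DAAM2 link to Dishevelled in Wnt signalling, INF2 also severs filaments and acts at the endoplasmic reticulum and mitochondria, and FHOD1 bundles filaments at stress fibres.

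The exons on which the results turn lie at the 2 ends of the proteins, and their sequences are given here, 5′ to 3′, from GENCODE 29 transcripts (GRCh38). The FMNL3 tail exon (chr12:49646639-49646753, minus strand, exon 26 of the 27 of FMNL3-205) holds the last 89 coding bases and the stop codon. Without it, in FMNL3-201, translation runs into the next exon and ends there with another tail (chr12:49645815-49645903). FMNL2 (chr2:152643419-152643510, plus strand) and FMNL1 (chr17:45246505-45246596, plus strand) have a tail exon with an equal number of coding bases, and over the 92 bases to the stop codon the FMNL2 and FMNL3 exons are identical at 67.4% of positions, FMNL1 and FMNL3 at 63.0% and FMNL1 and FMNL2 at 60.9%. The stop codon is in capitals.
FMNL3 tail with the exon: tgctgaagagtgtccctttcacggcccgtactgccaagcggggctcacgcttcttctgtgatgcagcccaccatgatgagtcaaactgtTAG
FMNL3 tail without the exon: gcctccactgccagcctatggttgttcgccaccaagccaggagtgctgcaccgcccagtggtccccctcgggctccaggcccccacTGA
FMNL2 tail with the exon: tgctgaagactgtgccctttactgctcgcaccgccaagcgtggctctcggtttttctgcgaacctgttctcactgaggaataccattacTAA
FMNL1 tail with the exon: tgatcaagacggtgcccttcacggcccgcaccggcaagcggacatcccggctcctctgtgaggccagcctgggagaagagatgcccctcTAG

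The 57 nt exon of INF2 (chr14:104715284-104715340, plus strand, exon 22 of 23) also ends the coding sequence. It carries a cysteine codon as the fourth from the end, the place of the cysteine that receives a lipid anchor in tails of the CAAX kind, and the form with it is known as the one bound to the endoplasmic reticulum. The form without the exon (chr14:104718795-104718823) has the codon CCC in that place. The cysteine codon and the stop codons are in capitals.
INF2 tail with the exon: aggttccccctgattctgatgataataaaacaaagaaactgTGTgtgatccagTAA
INF2 tail without the exon: gcctcaggcccaggcccaaggccaagTGA

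The 3 DIAPH genes each have a short coding exon 2, near the N-terminus, with a length that is a multiple of 3. The 27 nt exon of DIAPH1 (chr5:141588224-141588250, minus strand) is exon 2 and starts at codon 40. The 33 nt exon of DIAPH3 (chr13:60132957-60132989, minus strand) is exon 2 and starts at codon 61, and the 33 nt exon of DIAPH2 (chrX:96735758-96735790, plus strand) is exon 2 and starts at codon 45. They are shown in capitals between 15 bases of each neighbouring exon, to set the DIAPH1 exon beside exon 2 of the other DIAPH genes. The neighbouring bases are identical at 63.3% of positions between DIAPH1 and DIAPH3, 53.3% between DIAPH1 and DIAPH2 and 56.7% between DIAPH3 and DIAPH2. The annotation lets the DIAPH1 and DIAPH3 exons be skipped but not the DIAPH2 one, whose annotated cassette exon is another, of 21 nt (chrX:96763100-96763120, exon 5, from codon 150).
DIAPH1 27 nt exon with neighbours: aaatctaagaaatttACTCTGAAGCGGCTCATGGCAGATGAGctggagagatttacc
DIAPH3 33 nt exon with neighbours: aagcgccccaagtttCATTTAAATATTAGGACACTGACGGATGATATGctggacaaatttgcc
DIAPH2 33 nt exon with neighbours: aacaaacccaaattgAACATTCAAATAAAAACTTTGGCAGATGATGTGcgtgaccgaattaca

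Short exons, with lengths that are a multiple of 3, were common among the 9 testable exons. Such lengths occurred in 8 of the 9 (88.9%) and in 46.9% of all 6495 testable exons, and 4 of the 9 were 33 nt or shorter (44.4%), beside 3.87% of all. Of the 9, 5 are coding throughout and keep the reading frame (DIAPH1 27 nt, DIAPH2 21 nt, DIAPH3 33 and 177 nt and FHOD1 162 nt). The FMNL3 tail exon, INF2 57 nt and FMNL2 126 nt hold a stop codon, and FHOD1 24 nt is annotated only in a transcript marked for nonsense-mediated decay. These shares are a description of 9 exons, with no test. The letters GCATG, the core of the motif that RBFOX proteins bind, occurred in none of the 9 exons on the transcript strand and in 9.85% of all testable exons. RBFOX sites usually lie in the introns beside an exon, and no intron sequence was searched.

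In every total KD and N-long KD library, the FMNL3 tail and DIAPH1 27 nt exons were skipped more often than in any control. For FMNL3 every N-long KD value lay above every total KD value. These values chose the genes and are therefore described without a test. FMNL3 inclusion was 95.5% in the control at 24 hr (replicate 2) and 100.0% in the controls at 48 and at 96 hr. In total KD it was 46.2% at 24 hr (replicate 1), 30.8% at 48 hr and 40.9% at 96 hr. The total KD and control values did not overlap, and wild type HUES66, at 96.0%, lay with the controls. In N-short KD the FMNL3 exon was at 91.4% and 92.3% in the 24 hr replicates, 100.0% at 48 hr and 91.7% at 96 hr. In N-long KD it was at 91.3% and 94.7% in the 24 hr replicates, 89.7% at 48 hr and 71.4% at 96 hr. These 4 values lay below every control. Their 95% Wilson intervals overlapped that of the control in each set that holds both. Only the 96 hr interval, 52.9% to 84.8%, overlapped an interval of a total KD library. Within library sets, total KD minus control was -64.2 ± 7.17 points (SD, n = 2 sets), N-short KD differed from control by -3.83 ± 4.21 points (n = 3) and N-long KD by -13.2 ± 14.2 points (n = 3). The N-long KD differences were -0.72 points at 24 hr, -10.3 points at 48 hr and -28.6 points at 96 hr, their mean was smaller than their SD, and without the 96 hr set it was -5.53 points.

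DIAPH1 27 nt inclusion was 78.3% in the control at 24 hr, 92.1% at 48 hr and 74.7% at 96 hr. In total KD it was 48.8% at 24 hr, 38.5% at 48 hr and 36.9% at 96 hr, below every control. In N-long KD it was 58.8% and 62.8% in the 24 hr replicates, 48.6% at 48 hr and 46.2% at 96 hr, again below every control. In N-short KD it was 82.5%, 75.9%, 85.5% and 73.4% in the same order, a range that overlapped the controls. Relative to control within sets the differences were -45.7 ± 11.2 points in total KD (SD, n = 2), -29.2 ± 14 points in N-long KD (n = 3) and -3.44 ± 2.77 points in N-short KD (n = 3). N-long KD minus N-short KD was negative in all 4 sets for DIAPH1 (-13.1 to -36.9 points, mean -25.2 ± 9.83) and mixed for FMNL3 (2.43 to -20.2 points, mean -7.07 ± 10.4, and -2.68 without the 96 hr set). These comparisons share their control libraries. Over the 14 doxycycline libraries the inclusion of the 2 exons correlated with a Pearson r of 0.82, a description of libraries that share knockdown groups and sets. Each FMNL3 value rests on 13 to 39 reads and each DIAPH1 value on 43 to 103 reads, and intervals cover counting error only.

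**Figure D1:**
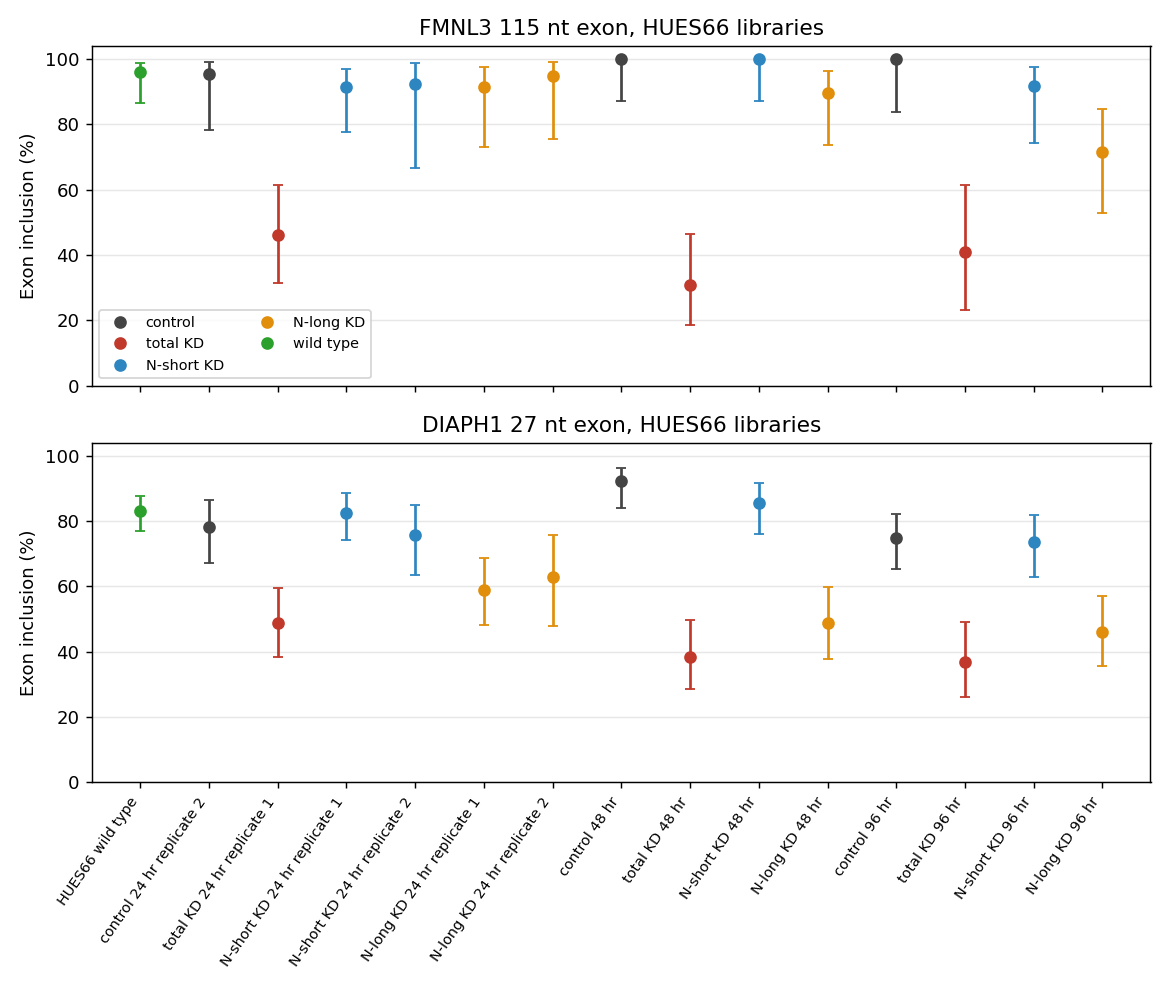
Inclusion (percent, vertical axis) of the FMNL3 tail exon (top) and the DIAPH1 27 nt exon (bottom) in wild type HUES66 and the 14 doxycycline libraries (horizontal axis). Points are single libraries and bars are 95% Wilson intervals. The total KD libraries sit at 30.8% to 46.2% for FMNL3 and 36.9% to 48.8% for DIAPH1, and the N-long KD libraries at 71.4% to 94.7% and 46.2% to 62.8%.

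The authors' deposited tables give each knockdown against control by time. There the FMNL3 exon differed, knockdown minus control on a scale of -1 to 1, by -0.516, -0.693 and -0.634 in total KD at 24, 48 and 96 hr, and the DIAPH1 exon by -0.335, -0.540 and -0.415. For N-long KD the authors' deposited table gives DIAPH1 -0.210 at 24 hr, -0.433 at 48 hr and -0.288 at 96 hr. For the FMNL3 exon in N-long KD the authors' deposited table gives -0.028, -0.118 and -0.284. At an adjusted p under 0.05 and a difference of at least 0.1, both exons were called in total KD at each time. In N-long KD only the DIAPH1 exon at 48 hr was called, and in N-short KD neither exon was. Of the 373 other formin events in the 9 tables, 0 were called at these limits, where 0.0349% of all 443906 events were.

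The exons whose inclusion followed that of FMNL3 most closely over the 14 libraries, of 6406 searched, were a 63 nt exon of MPRIP (r = 0.97), 2 overlapping exons of FAM126A (r = 0.96 and 0.94), a 51 nt exon of UAP1 (r = 0.92) and a 63 nt exon of ENAH (r = 0.91). Those closest to DIAPH1 were a 111 nt exon of CTTN (r = 0.97), an 84 nt exon of GOLIM4 (r = 0.94), a 411 nt exon of EPB41L1, a 132 nt exon of PPP1R12A and a 49 nt exon of ARHGAP17 (r = 0.91 each). No exon is in both groups of 5. PPP1R12A encodes a subunit of myosin phosphatase and MPRIP a protein that binds it, ENAH an actin filament elongation factor and CTTN cortactin, an activator of branched actin. The other genes are not described, and the share of actin genes among all exons searched was not counted. These r values follow the knockdown values that chose the FMNL3 and DIAPH1 exons, so a common function was not tested.

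Exon 2 of DIAPH2, the 33 nt exon shown above, was skipped by a junction outside the annotation (chrX:96685191-96738585), with more skipping in total KD and N-long KD than in the controls. It was picked out after its values were seen and is described without a test. Its inclusion was 87.9%, 85% and 84.8% in the controls at 24, 48 and 96 hr and 55.6%, 45.0% and 36.0% in total KD, on 20, 22 and 16 skipping reads. In N-long KD it was 63.2% and 69.0% in the 24 hr replicates, 70.5% at 48 hr and 72.0% at 96 hr. The total KD and N-long KD values lie below every control and do not overlap each other. In N-short KD it was 86.7% and 100.0% in the 24 hr replicates, 87.8% at 48 hr and 94.7% at 96 hr, which overlaps the controls, and wild type HUES66 was at 83.0%. Within sets the difference from control was -44.4 ± 6.26 points in total KD (SD, n = 2), -15.4 ± 3.13 points in N-long KD (n = 3) and 8.27 ± 4.86 points in N-short KD (n = 3). N-long KD minus N-short KD was negative in all 4 sets (mean -23.7 ± 5.63 points). Each value rests on 19 to 45 reads, and the Wilson intervals of N-long KD overlap those of the control in each set that holds both. In A375 total RNA the exon was at 100.0% and in HEK293 at 95.5%, on 15 and 22 reads.

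No other testable formin exon, all of them annotated as cassettes, passed the test in any knockdown comparison. The 7 were the 21 nt exon of DIAPH2, the 33 and 177 nt exons of DIAPH3, the 126 nt exon of FMNL2, the 57 nt exon of INF2 and the 24 and 162 nt exons of FHOD1. With edgeR's quasi-likelihood test, 0 of 7 were called in total KD against control, where 1.39% of all exons were, and 0 of 7 in N-short KD against control (0.0154% of all), in N-long KD against control (0.6% of all) and between the N-long KD and N-short KD libraries (0.431% of all). At an unadjusted p under 0.05 there were also 0 of 7 in each, limma called 0, and the lowest adjusted p was 0.856. Calls were rare among all exons, so counts of 0 among 7 lie close to the background.

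DIAPH3 33 nt inclusion was 82.8%, 86.6% and 80.0% in the controls at 24, 48 and 96 hr, and 81.8%, 87.0% and 86.7% in total KD at the same times, so the groups overlapped. Total KD minus control was 3.52 ± 4.45 points (SD, n = 2 sets), with an edgeR log2 odds change of 0.12 ± 0.40 (SE, adjusted p = 0.996). DIAPH2 21 nt inclusion was 81.0%, 88.2% and 95.5% in the controls and 96.6%, 90.4% and 95.5% in total KD, a difference of 1.07 ± 1.52 points (n = 2), with a log2 odds change of 0.69 ± 0.70 (SE, adjusted p = 0.916). Of the tail exons of the FMNL3 relatives, the FMNL2 126 nt exon was included at 3.17% of the pooled reads of the doxycycline libraries (0.0% to 10.7% per library). That share leaves out 418 reads that join the same donor to an acceptor outside the annotation, and with them it was 1.91%, under the 2% needed for testing. The FMNL1 100 nt exon had 2 reads on 1 of its inclusion junctions, 0 on the other and 175 skipping reads. The FMNL3 tail exon was at 77.5% of its pooled reads.

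No change in gene reads of the other 8 formins was detected in the knockdowns. With edgeR, 0 of 8 genes were called in total KD against control, where 2.2% of all genes were, in N-short KD against control (0.0% of all), in N-long KD against control (0.022% of all) and between the N-long KD and N-short KD libraries (0.0147% of all). None of the 8 had an unadjusted p under 0.05 in any of the 4, DESeq2 called 0, and the largest fitted change was a log2 change of 0.20 ± 0.13 (SE) for DAAM2 in N-long KD. For FMNL3 and DIAPH1 the knockdown values are described only. FMNL3 reads were 82.1, 84.5 and 76.7 CPM in total KD at 24, 48 and 96 hr and 70.5, 71.9 and 63.0 CPM in the controls, which do not overlap, and total KD minus control was 0.26 ± 0.04 on the log2 scale (SD, n = 2 sets). DIAPH1 reads were 355.6, 335.1 and 391.5 CPM in total KD and 371.7, 354.3 and 422.7 CPM in the controls, which overlap, with a difference of -0.10 ± 0.02 (SD, n = 2).

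Levels of the 10 genes are compared as median CPM per intron, since a gene with more introns collects more junction reads. Over the 14 doxycycline libraries DIAPH1 stood highest, at 13.8 (12.4 to 15.2). DIAPH3 (6.37, 5.06 to 6.95) and FMNL2 (6.20, 4.91 to 7.98) followed and overlapped each other. INF2 (3.41, 2.80 to 3.63), DAAM1 (3.09, 2.58 to 3.75), FHOD1 (2.83, 2.32 to 3.89), FMNL3 (2.66, 2.43 to 3.02) and DIAPH2 (2.62, 1.91 to 3.87) formed one overlapping group, and FMNL1 (0.40) and DAAM2 (0.38) were the lowest and overlapped. The order of these medians is a description of 14 libraries that differ in knockdown and time.

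**Figure D2:**
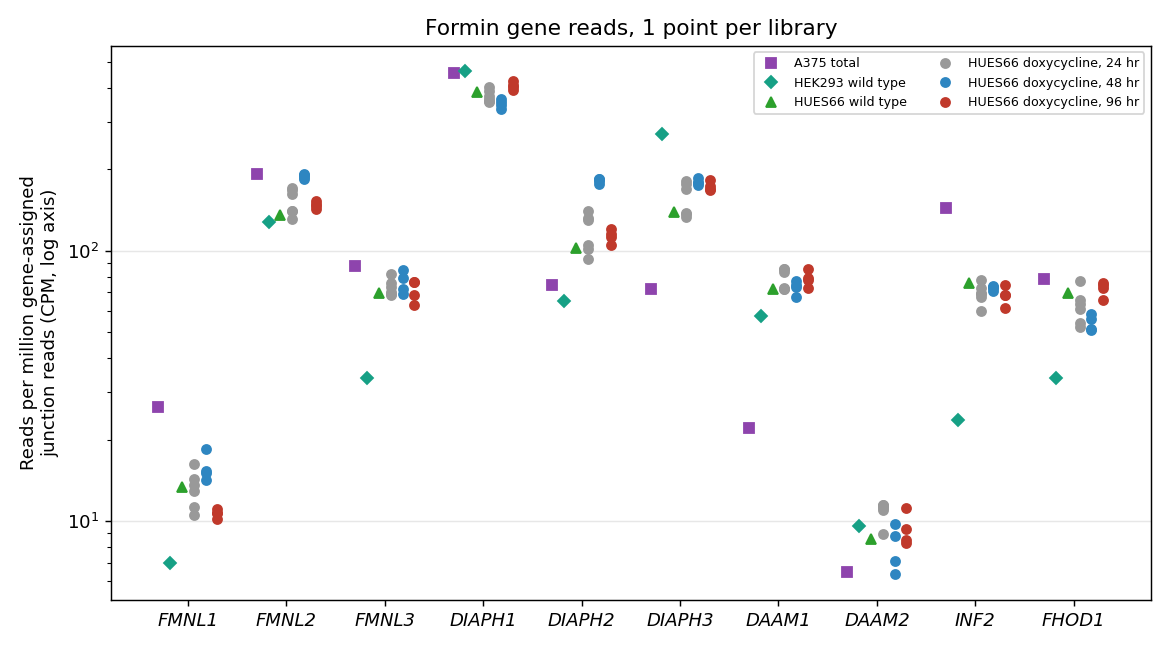
Gene reads of the 10 formins (CPM, vertical log axis) by gene (horizontal axis), 1 point per library, with symbols for A375 total RNA, HEK293, wild type HUES66 and the doxycycline libraries at 24, 48 and 96 hr. DIAPH2 at 48 hr (177.0 to 184.0 CPM) lies above DIAPH2 at 96 hr (104.9 to 120.6 CPM), and INF2 in HEK293 (23.7 CPM) lies below every other library.

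Between 48 and 96 hr the formins moved in both directions. With edgeR, 4 of the 10 genes were higher at 96 hr (FHOD1, DAAM2, DIAPH1 and DAAM1), 3 were lower (DIAPH2, FMNL1 and FMNL2), and FMNL3, DIAPH3 and INF2 did not pass. Of all genes tested 59.0% were called in this comparison, 29.3% higher and 29.7% lower, so 7 of 10 formins lies near that background. With no replicate block the count was 5 of 10. Each time is 1 library set, in which the 4 knockdown groups stand in as replicates. The 48 and 96 hr sets share a library series. At 24 hr, replicates 1 and 2 are sets of different series, and they differed at the same time. In N-long KD, DIAPH2 had 92.8 and 130.1 CPM in these replicates, FMNL2 130.7 and 161.9 CPM, FHOD1 63.5 and 53.8 CPM and DIAPH1 388.6 and 358.6 CPM. Time, library set, time in culture and time in doxycycline cannot be told apart, and the errors and p-values of this comparison hold no variation between sets. In bulk RNA, fewer cells of a type and less RNA per cell cannot be told apart either. Summed markers moved with it: the 7 stem cell markers were at 3132 to 3276 CPM at 48 hr and 3742 to 4539 CPM at 96 hr, the 4 neural markers with reads at 9.19 to 13.5 CPM and 14.5 to 20.5 CPM, and the 6 melanoma markers with reads at 126.9 to 129.9 CPM and 73.9 to 82.4 CPM, and their part in the result was not tested.

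DIAPH2 fell most among the 10 genes. It had 180.7, 177.0, 183.3 and 184.0 CPM at 48 hr in control, total KD, N-short KD and N-long KD. In the same order it had 112.7, 120.6, 104.9 and 114.8 CPM at 96 hr. The values at the 2 times do not overlap, and DIAPH2 fell to a fold of 0.651 (log2 change -0.62 ± 0.04, SE, adjusted p = 2.24e-14). FMNL2, a driver of lamellipodia and filopodia, had 187.0, 191.2, 190.8 and 184.0 CPM at 48 hr and 142.2, 152.8, 146.3 and 148.9 CPM at 96 hr, again apart, with a log2 change of -0.29 ± 0.03 (SE, adjusted p = 6.32e-09). FMNL1, the blood-cell member of the family and low here, had 15.7 ± 1.86 CPM at 48 hr and 10.6 ± 0.363 CPM at 96 hr (SD, n = 4 each), with a log2 change of -0.50 ± 0.10 (SE, adjusted p = 0.000101).

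FHOD1 rose most among the 10 genes. It had 58.3, 55.8, 50.7 and 51.2 CPM at 48 hr and 65.8, 72.9, 75.6 and 74.3 CPM at 96 hr, in the same order of groups, with no overlap, a fold of 1.39 and a log2 change of 0.48 ± 0.06 (SE, adjusted p = 1.16e-08). DIAPH1 had 354.3, 335.1, 362.3 and 345.8 CPM at 48 hr and 422.7, 391.5, 409.1 and 401.8 CPM at 96 hr, also apart, a fold of 1.21 (log2 change 0.28 ± 0.03, SE, adjusted p = 6.97e-10). DAAM1 had 73.0 ± 4.23 CPM at 48 hr and 78.8 ± 5.16 CPM at 96 hr (SD, n = 4), which overlap, with a log2 change of 0.17 ± 0.05 (SE, adjusted p = 0.00323), and was not called with no replicate block. DAAM2, at 8.01 ± 1.56 CPM and 9.32 ± 1.33 CPM, passed narrowly (log2 change 0.28 ± 0.12, SE, adjusted p = 0.0457) and was not called with DESeq2 or with no replicate block, nor in 8 of the 14 fits that left out 1 library each (log2 change 0.17 without the control at 48 hr).

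Of the single junctions tested, 17 of 28 of DIAPH1 and 10 of 21 of FHOD1 were higher at 96 hr, where 16.3% of all junctions were, and 16 of 28 of DIAPH2 and 16 of 25 of FMNL2 were lower, where 15.9% of all were. In DAAM1, 2 of 24 were higher, in DIAPH3 1 of 28 and in INF2 1 of 21 were lower, and none was called in FMNL1 (11 tested), FMNL3 (27) or DAAM2 (3). The test of single junctions was added after the data were seen. Its reads are the same reads that the gene counts sum, so these counts are no separate evidence for the gene changes.

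Of the genes listed as working with formins or actin, 39 of the 40 had reads. PFN2, a profilin that feeds actin to FH1 domains, was the 1 of 39 called in total KD against control, where 2.2% of all genes were, and it rose (log2 change 0.28 ± 0.07, SE, adjusted p = 0.0330). In the comparisons of N-short KD and of N-long KD with control, and of the 2 isoform knockdowns with each other, 0 were called. At an unadjusted p under 0.05 there were 4, 3 and 1 of 39 in that order, where 3.94%, 4.35% and 5.09% of all genes were. The count of 1 call lies near the background. At 96 hr against 48 hr, 19 of 39 rose, where 29.3% of all genes did, and 10 fell, where 29.7% did, with a median log2 change of 0.07 beside -0.01 over all genes. FHOD3, a formin outside the 10 (log2 change -0.72 ± 0.09, SE), and the nucleators COBL (-0.92 ± 0.06) and SPIRE1 (-0.45 ± 0.08) fell. The others that fell were RHOD (-0.66 ± 0.14), RHOF (-0.38 ± 0.17), PFN2 (-0.34 ± 0.06), MRTFB (-0.21 ± 0.06), WASF2 (-0.14 ± 0.04), CAPZB (-0.08 ± 0.03) and ACTG1 (-0.07 ± 0.03). Among the 19 that rose were the branched actin subunit ACTR3 (0.49 ± 0.03), the major profilin PFN1 (0.33 ± 0.03) and the kinase ROCK2 (0.30 ± 0.03). SRF (0.28 ± 0.06), the transcription factor that senses actin through its cofactors, was another.

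No formin exon passed the test between 48 and 96 hr. With edgeR, 0 of 9 were called, where 17.3% of all exons were, 5 of the 9 had an unadjusted p under 0.05, where 29.7% of all exons did, and limma called 1. The 5 were FHOD1 162 nt, FHOD1 24 nt, FMNL2 126 nt, DIAPH2 21 nt and DIAPH1 27 nt. FHOD1 24 nt inclusion was 23.5%, 21.1%, 44.4% and 22.2% at 48 hr and 11.1%, 8.70%, 12.1% and 12.1% at 96 hr in control, total KD, N-short KD and N-long KD, on 17 to 33 reads per library. The 2 times did not overlap, with a log2 odds change of -1.66 ± 0.64 (SE, adjusted p = 0.0613). FMNL2 126 nt inclusion was 0.0% to 3.45% at 48 hr and 5.0% to 10.7% at 96 hr, apart at every library (log2 odds change 2.18 ± 0.86, SE, adjusted p = 0.0729), and this is the exon that limma called (adjusted p = 0.0220). These shares lie near the floor. Over the 4 libraries of each time they rest on 3 inclusion reads beside 208 skipping reads at 48 hr, and on 10 beside 136 at 96 hr. The acceptor outside the annotation is not in these shares. DIAPH2 21 nt inclusion was 87.3% to 90.4% at 48 hr and 95.0% to 96.6% at 96 hr (log2 odds change 1.42 ± 0.61, SE, adjusted p = 0.103). FHOD1 162 nt inclusion was 100.0%, 100.0%, 96.0% and 100.0% at 48 hr and 93.6%, 86.5%, 92.9% and 100.0% at 96 hr, in the same order of groups, so the times overlapped (log2 odds change -2.79 ± 1.05, SE, adjusted p = 0.0586). DIAPH1 27 nt inclusion was 38.5% to 92.1% at 48 hr and 36.9% to 74.7% at 96 hr, which overlap (log2 odds change -0.62 ± 0.27, SE, adjusted p = 0.112).

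Between lines, the INF2 tail and an N-terminal exon of FMNL3 differed by more than counting error. Each line is 1 library, so no test applies and the intervals cover counting error only. INF2 57 nt was included at 48.5% in A375 total RNA (95% Wilson interval 32.5% to 64.8%, 33 reads) and at 7.79% in wild type HUES66 (3.62% to 16%, 77 reads). It was at 60.0% in A375 nuclear RNA, 44.5% in A375 cytoplasmic RNA and 54.5% in HEK293, the last on 11 reads only. The 14 doxycycline libraries ranged from 0.0% to 18.2% with a median of 4.76%, all below the A375 and HEK293 values. The cysteine-tailed form of INF2 was thus a larger share of INF2 in A375 than in the HUES66 libraries. FMNL3 153 nt (chr12:49658442-49658594, minus strand), a coding exon near the N-terminus that starts at codon 151, was included at 36.8% in A375 total RNA, 41.7% in nuclear and 47.8% in cytoplasmic RNA, at 76.9% in HEK293 (13 reads) and at 100.0% in every HUES66 library (19 to 67 reads each). That exon was too constant in HUES66 to be tested and was picked out after its values were seen. DIAPH1 27 nt was at 94.7% in A375, 83.1% in HEK293 and 83.0% in wild type HUES66, DIAPH3 33 nt at 80.0%, 72.1% and 77.7%, and DIAPH2 21 nt at 74.1%, 64.0% and 84.4%, in the same order, with overlapping Wilson intervals for each exon.

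**Figure D3:**
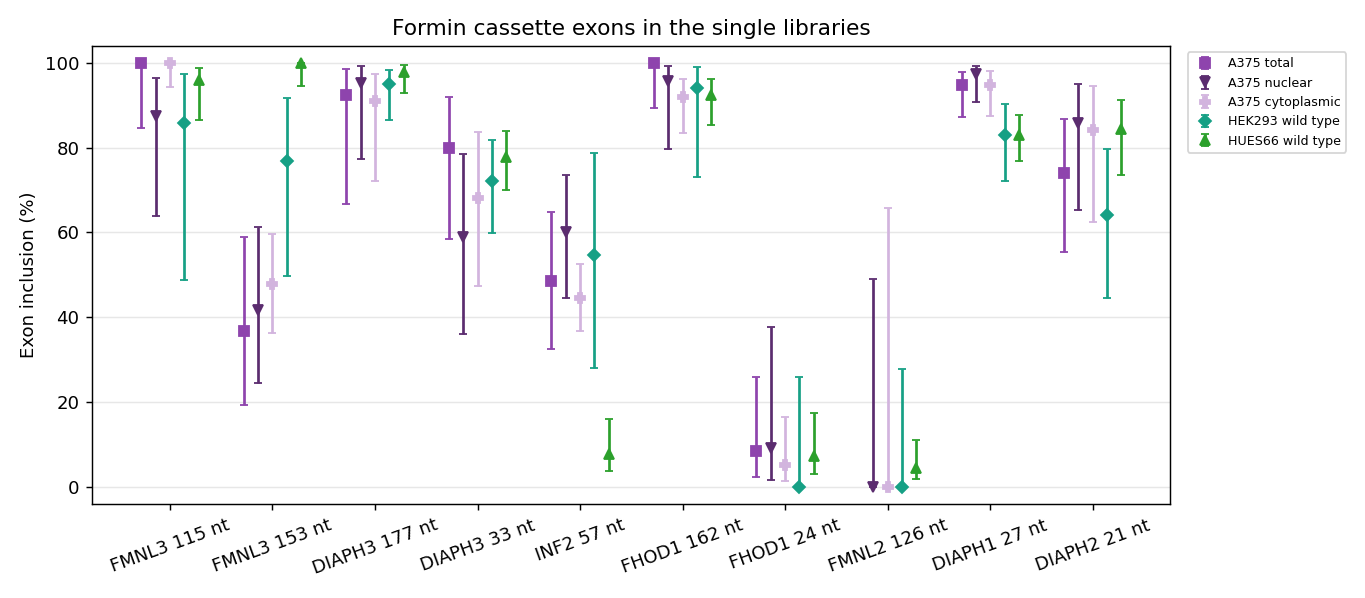
Inclusion (percent, vertical axis) of 10 formin cassette exons (horizontal axis) in the 5 libraries whose labels name no doxycycline. The first exon is the FMNL3 tail exon, FMNL2 126 nt has no reads in A375 total RNA, points are single libraries and bars are 95% Wilson intervals. INF2 57 nt stands at 44.5% to 60.0% in A375 and HEK293 and at 7.79% in HUES66, and FMNL3 153 nt at 36.8% to 47.8% in A375 and 100.0% in HUES66.

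Gene reads parted the lines by family member. INF2 was at 143.8 CPM in A375, 76.0 CPM in wild type HUES66 and 23.7 CPM in HEK293, a ratio of 6.07 between A375 and HEK293 (exact interval 5.24 to 7.06). DIAPH3, which acts at the cleavage furrow of dividing cells, ran the other way, with 72.4 CPM in A375, 139.1 CPM in HUES66 and 269.2 CPM in HEK293. FMNL1 was at 26.4, 13.3 and 7.0 CPM and FMNL3 at 88.0, 69.9 and 33.9 CPM in A375, HUES66 and HEK293. DAAM1 was at 22.1 CPM in A375, below 57.2 CPM in HEK293 and 72.0 CPM in HUES66. DIAPH1 was the most even, at 453.2, 386.6 and 461.3 CPM in A375, HUES66 and HEK293. With 1 library per line, the line and the library cannot be told apart.

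In A375, the spliced RNA of the 3 DIAPH genes was richer in the nuclear than in the cytoplasmic library. DIAPH1 had 635.1 CPM in nuclear and 140.0 CPM in cytoplasmic RNA, a ratio of 4.54 (exact interval 4.32 to 4.76), and 11.1% of the 12759 genes with enough reads had a higher ratio. DIAPH3 followed at 2.63 (2.35 to 2.93) and DIAPH2 at 2.18 (1.95 to 2.44). The DIAPH2 ratio differed along the gene: the ratio of the medians per intron was 3.09 over the introns before the last 3, and 1.09 over the last 3. That cut was set by a step in HUES66, described below, and reads in A375 rose earlier. In cytoplasmic RNA, introns 22, 23 and 24 from the 5′ end had 19, 70 and 90 reads, and in nuclear RNA 8, 38 and 29. FMNL2 (1.83) and DAAM1 (1.80) lay near the upper quartile of all genes, 1.82, and FHOD1 (1.23) and FMNL3 (1.13) were above 1. INF2 (0.951), DAAM2 (0.914) and FMNL1 (0.870) lay near the median of all genes, 0.929, with intervals that include 1. In all, 7 of 10 formins had a ratio above 1, beside 46.7% of all genes. The ratio is of shares of 2 libraries, not of molecules per cell, and rests on 1 library per fraction. FMNL3 tail exon was at 87.5% in nuclear and 100.0% in cytoplasmic RNA (16 and 64 reads) and DIAPH1 27 nt at 97.3% and 94.9%, with overlapping intervals.

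**Figure D4:**
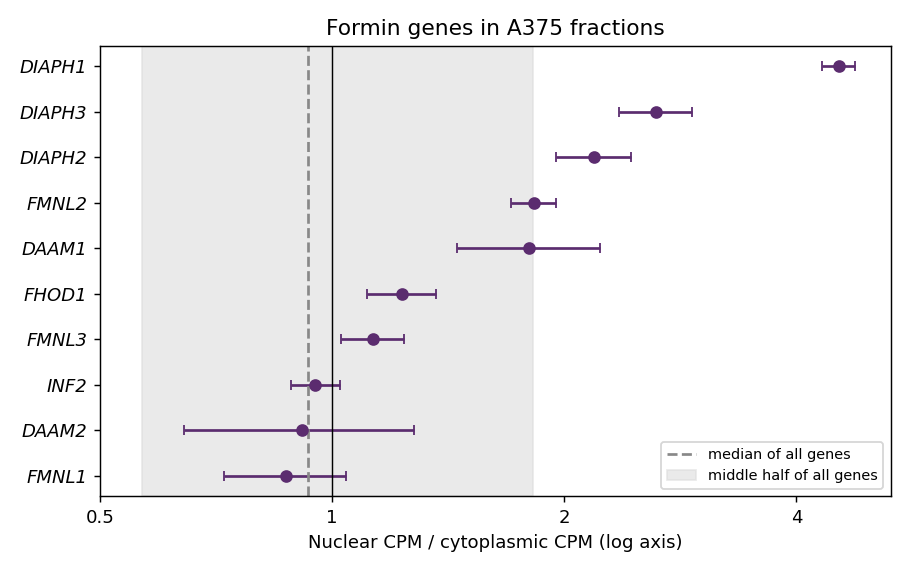
Ratio of nuclear to cytoplasmic CPM in A375 (horizontal log axis) for the 10 formin genes (vertical axis), with exact intervals as bars. The dashed line is the median of all genes (0.929) and the grey band their lower to upper quartile (0.567 to 1.82). DIAPH1 at 4.54, DIAPH3 at 2.63 and DIAPH2 at 2.18 lie to the right of the band.

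DIAPH2 reads in HUES66 came mostly from the 3′ end of the gene. In wild type HUES66 the last 3 introns of DIAPH2-204, a transcript of 28 exons, held 51.4% of the reads of DIAPH2, and their median was 17.9 CPM against 1.97 CPM for the other 24 introns, a ratio of 9.08. The 14 doxycycline libraries had ratios of 7.39 to 11.8 (median 8.84). HEK293 had a ratio of 0.727, and A375 had 1.89 in total, 1.35 in nuclear and 3.84 in cytoplasmic RNA, so HUES66 lay apart from both other lines. In wild type HUES66 only 5 of 5064 genes had a ratio of last 3 to other introns at or above that of DIAPH2, and the median gene had 0.952. In HUES66 the step falls after intron 24, which had 42 reads in the wild type where intron 25 had 472. In A375 total RNA introns 24 and 25 had 35 and 49 reads, and reads rose from 25 in intron 22 to 45 in intron 23. This pattern was picked out after the values were seen. The aligner placed the reads of intron 24 at an annotated position 2 bases away, and they were counted as that intron.

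Junctions outside the GENCODE annotation accompanied the step. A splice donor inside intron 24 of DIAPH2 (first intron base chrX:97310659) was used by 139 reads in wild type HUES66 and 49 to 169 reads in each doxycycline library (median 79.0), and by 0 reads in HEK293 and in the 3 A375 libraries. Most of these reads, 109 of 139 in wild type HUES66, joined an acceptor shortly before that of exon 25. Reads from this donor came to 29.45% of the intron 25 reads in wild type HUES66 and 22.0% to 35.2% in the doxycycline libraries. The source of the intron 25 reads was not tested. At 96 hr against 48 hr both stretches of DIAPH2 were lower: the median of the last 3 introns was 33.1 to 37.1 CPM at 48 hr and 18.3 to 21.3 CPM at 96 hr, and that of the other introns 2.98 to 3.38 CPM and 1.92 to 2.40 CPM, with no overlap in either. The gene reads of DIAPH2 given above hold both stretches. An antisense gene, DIAPH2-AS1, overlaps the last of these introns on the other strand.

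**Figure D5:**
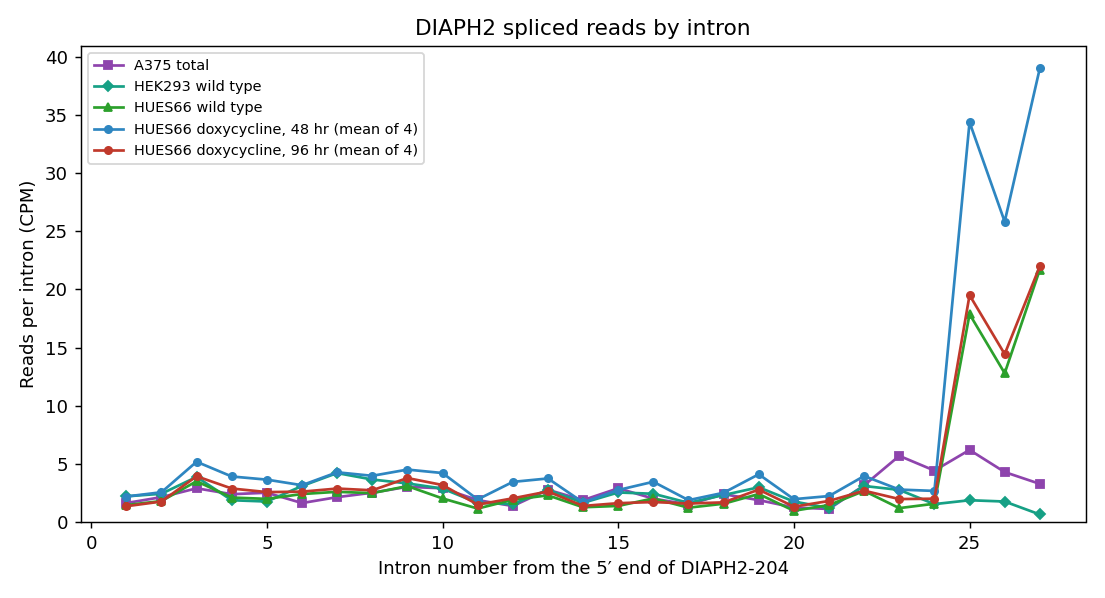
Reads of DIAPH2 per intron (CPM, vertical axis) by intron number from the 5′ end of the transcript (horizontal axis) in A375 total RNA, HEK293, wild type HUES66 and the means of the 4 libraries at 48 and at 96 hr. All lines lie low up to intron 24, and the HUES66 lines rise at introns 25 to 27, where wild type HUES66 has a median of 17.9 CPM.

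The remaining 17 cassette exons could not be tested. Of these 5 were included in more than 98% of pooled reads of the doxycycline libraries (FMNL3 153 nt, DIAPH3 105 nt, DAAM1 61 nt, INF2 108 nt and DIAPH1 95 nt), 5 in less than 2% (DAAM1 30 nt, FMNL2 21 nt and the 151, 142 and 53 nt exons of DIAPH1), and 7 had a mean of fewer than 20 reads. The FMNL2 21 nt exon had 0 inclusion reads of 439, which allows up to 0.683%. The DAAM1 30 nt exon had 2 reads on 1 of its inclusion junctions, 0 on the other and 501 skipping reads. Nearest to the limits were FHOD1 162 nt (97.3% pooled) and FMNL2 126 nt (3.17%) inside and INF2 108 nt (99.6%) and DIAPH1 53 nt (0.042%) outside by inclusion, and FHOD1 24 nt (22.8 reads per library) inside and FMNL1 100 nt (12.5 reads) outside by depth.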

How the data were processed

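Libraries were rRNA-depleted (Kapa RiboErase) with ERCC spike-ins, per the labels. STAR 2.7.1, SAMtools 1.9 and hg38 are named in the submitters' processing notes. The deposited junction tables hold raw read counts per junction, 1 table per library. The authors also deposited 9 comparison tables with p-values and an inclusion difference on a scale of its own, per the file headers, and 69 per-library columns of these were not used. The A375 tables differ from the others in the annotation tag of their names, and its effect was not tested.

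Junctions were matched to GENCODE 29 (GRCh38). Counts were summed per gene, which assigned 93.3% to 94.8% of reads. Cassette exons of up to 1000 nt needed 2 annotated inclusion junctions and 1 skipping junction. Inclusion reads are the rounded mean of the 2 junctions. Testable exons had a mean of at least 20 reads and a pooled inclusion of 2% to 98%. The 14 doxycycline libraries were fitted together in edgeR 4.0.16 (R 4.3.3, quasi-likelihood test, TMM, filterByExpr); the model held the library set and the knockdown, with p-values adjusted over all features by Benjamini-Hochberg at 0.05. Exon fits used the inclusion and skipping counts of each library. DESeq2 1.42.0 and limma 3.58.1 (offset 0.5) were alternatives, listed with others in the closing section. The set term is a paired design: residuals had a median r of 0.60 over 18 within-set pairs, and -0.19 over 55 pairs that share neither set nor group. This cannot tell a shared time or library series from cultures paired within a set. The sets come from the time points, and at 24 hr the replicate numbers, of the labels. Single libraries carry 95% Wilson intervals for shares and exact intervals for ratios of counts, and a count of 0 was taken to allow 3 reads. The fits were tested on simulated data.

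The genes and lists were chosen with earlier results of these data known. Exons were named if they chose the genes, if called in a contrast, or if lines differed by at least 20 points with separate intervals and at least 20 reads; only INF2 57 nt met the last rule. The 5 exons of highest r to FMNL3 and DIAPH1 needed 10 reads in each library. Wild type HUES66, whose description also bears the control name, entered knockdown contrasts as an alternative only. Intron sequence and proteins were not used here.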

Additional observations from a re-analysis of the deposited data

Results flagged for a closer look

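Of 38 groups of 4 libraries or more examined, 4 held a library far from the others of its group. Chance gives this in about 1 in 20 groups only where libraries of a group are alike and no values tie. The flagged groups mix library times and inclusion values can tie, so the count of 4 cannot be set against that rate. FMNL3 tail exon inclusion in N-short KD at 48 hr was 100.0%, beside 91.4% to 92.3% in the other N-short KD libraries. FHOD1 24 nt inclusion in N-short KD at 48 hr was 44.4% on 18 reads, beside 8.33% to 12.1% in the N-short KD libraries of other times. Over the 48 hr libraries of all groups it ranged from 21.05% to 44.4%. FHOD1 162 nt inclusion in N-long KD at 24 hr (replicate 1) was 98.1%, beside 100.0% in the other N-long KD libraries, a gap of 1 skipping read. DAAM2 reads in N-long KD at 48 hr were 8.81 CPM, beside 11.0 to 11.2 CPM in the N-long KD libraries of other times. That value lay within the 48 hr libraries of all groups, 6.335 to 9.756 CPM.

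Junctions outside the GENCODE annotation, which the gene counts do not hold, gave 4 further signals. In FMNL2 an acceptor in the last intron (first exon base chr2:152645434) was joined by 84 reads in A375 total RNA, which is 100.0% of the reads from its donor, and by 83.1% in HEK293, 42.9% in wild type HUES66 and 33.3% to 48.3% in the doxycycline libraries (median 39.1%). The exon it opens was 47 or 94 nt long, and the shorter form made up 29.4% to 50% of the exon's reads at 48 hr and 58.1% to 70.4% at 96 hr, with no overlap over 4 libraries each. A DIAPH2 junction (chrX:97310659-97348080) had 109 reads in wild type HUES66, 39 to 136 reads in the doxycycline libraries and 0 in A375 and HEK293. Another DIAPH2 junction (chrX:97120276-97141664) had 57 reads in A375 cytoplasmic, 32 in A375 total and 29 in A375 nuclear RNA, 1 read in wild type HUES66 and 0 in HEK293 and the doxycycline libraries. It ends at the acceptor of intron 22, just before the introns where A375 reads rose. The junction that skips the 33 nt exon of DIAPH2 (chrX:96685191-96738585) had 22 reads in total KD at 48 hr, beside 6 in the control of that set, and 0 to 4 reads in A375. These differences between lines, times and knockdowns were not tested.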

How the results depend on the processing

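Counts of called formin exons and genes in the 4 knockdown comparisons were 0 under each alternative run, with the replicate block (library set) and with no replicate block. The count of formin exons called at 96 hr against 48 hr, 0 with edgeR, was 1 with limma (FMNL2 126 nt), 1 with the smaller of the 2 inclusion junctions (FHOD1 162 nt) and 0 to 2 without any 1 library. It was 2 without the control at 48 hr (FHOD1 24 nt and FMNL2 126 nt) and 1 without N-short KD at 48 hr, control at 96 hr or N-long KD at 96 hr. The count of formin genes called was 7 in the paired fit, 5 with no replicate block and 6 to 7 without any 1 library. With no replicate block DAAM1 (log2 change 0.17) and DAAM2 (0.28) were no longer called. DAAM2 was not called with DESeq2 either (0.29), nor in 8 of the 14 fits that left out 1 library (0.17 without the control at 48 hr). The cause was not tested. No called result reversed. Differences in inclusion without any 1 library were -69.2 to -59.1 points for FMNL3 and -53.6 to -37.8 for DIAPH1 in total KD, and -19.5 to -5.53 for FMNL3 and -36.0 to -22.0 for DIAPH1 in N-long KD. The value of -5.53 is that without the 96 hr set. Depth limits exons more than genes: most inclusion values rest on fewer than 100 reads.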
